A study of Capra hircus with 2 samples.

Results

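CCT8 and CMSS1, genes that support the making of proteins, were described cell by cell in granulosa cells of the goat ovary. They were chosen by name and by what they encode, and are 2 of the 154 genes analysed. CCT8 encodes the theta subunit of the cytosolic chaperonin TRiC, a double ring of related subunits that encloses newly made proteins while they fold and that is best known for folding actin and tubulin. CMSS1 is the counterpart of a yeast protein tied to assembly of the small ribosomal subunit, and its role in mammals is less well described. Granulosa cells surround the oocyte, divide as the follicle grows and then turn to making steroid hormones and inhibin, and all of these tasks draw on the supply of ribosomes and of folding capacity.

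Both libraries came from ovarian granulosa cells of Ji'ning grey goats. The high fertility library came from goats that bear more than 3 kids per birth, and the low fertility library from goats that bear fewer than 2. Each group has 1 library, so no test between groups was possible, no p-value is given, and a difference between the libraries cannot be told apart from a difference between single goats, dissections or preparations. How many goats were pooled, and their age and the stage of the follicles, is not given in the sources used here. The cells were dissociated with TrypLE and captured on the 10x Genomics system, which tags the 3′ end of each captured transcript with a unique molecular identifier (UMI). A transcript gives 1 such tag whatever its length, so levels of different genes were compared without dividing by length. The libraries are called the high and the low library below, and paired values are given in that order.

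The files held 7106 cells in the high and 3345 cells in the low library, with medians of 7214.5 and 11080 UMIs per cell and totals of 63769786 and 45674506 UMIs. The labelled cell type could not be checked, because none of the 7 granulosa markers looked for is among the genes analysed. Of 7 leukocyte markers only SAMSN1, CD96 and CD80 are, and their summed level was 16.1 and 15.4 UMIs per 1000000 (CPM), nearly all of it SAMSN1. The libraries shared 27 cell barcodes, and none of these had the same total in both. Without these barcodes the ratios between the libraries differed from those below by less than their counting error. All intervals are 95% intervals and cover counting error only. In ratios of observed to expected counts and in comparisons at matched depth, the expected count is taken as fixed. Those intervals leave out its own counting error and are too narrow. UMIs of 1 cell or 1 library are not replicates of a condition.

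CCT8 and CMSS1 both stood among the more abundant of the 154 genes, and neither differed much between the libraries. CCT8, with 12267 and 8110 UMIs, reached 192 CPM (189 to 196, exact Poisson) and 178 CPM (174 to 181). That placed it at rank 5 of 154 in the high and rank 6 in the low library. CMSS1, with 5649 and 3980 UMIs, reached 88.6 CPM (86.3 to 90.9) and 87.1 CPM (84.5 to 89.9), at ranks 10 and 11.

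The ratio of the high to the low library was 1.08 for CCT8 (exact binomial interval 1.05 to 1.11) and 1.02 for CMSS1 (0.976 to 1.06). Neither gene passed 1.5-fold, a size passed in either direction by 15.9% of the 44 genes whose higher level was 10 CPM or more. The median ratio of these 44 genes was 1.14, above that of both genes. For CCT8 the direction turned when the ratio was divided by 1.12, the median over the 18 genes of 50 CPM or more in both libraries, which gave 0.967. It also turned on the deposited log scale, where the high library averaged 0.866 ± 0.669 (SD, 7106 cells) and the low library 0.880 ± 0.613 (SD, 3345 cells). The direction of the CCT8 ratio thus depended on the scale.

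In the order of levels, CCT8 lay below ENSCHIG00000022046, which has no symbol in the files and reached 399.9 and 453 CPM. The splicing cofactor gene SON followed CCT8 closely at 162 CPM in the high library and changed places with it in the low, at 179 CPM. The counting intervals of CCT8 and SON did not overlap in the high library and did overlap in the low. In the order of the high library CMSS1 lay between the HMG-box gene BBX, at 123 and 95.9 CPM, and PROS1, which encodes protein S, at 81.3 and 62.1 CPM. MRPL39, a protein of the large mitochondrial ribosomal subunit, lay above both at 127 and 105 CPM.

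The level per UMI of CCT8 was flat over a wide range of cell depth and lower in the deepest cells of both libraries. Cells were put into 8 bins by their total UMIs. In the high library the CCT8 level lay between 186 and 203 CPM in the 7 bins below 30000 UMIs, and at 163 CPM (153 to 174) in the 149 cells of 30000 UMIs or more. In the low library it lay between 179 and 212 CPM in those 7 bins and at 142 CPM (134 to 149) in the 225 deepest cells. In both libraries the interval of the deepest bin lay below the point values of every other bin.

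Cells of 15000 or more UMIs held CCT8 at 181 CPM and cells below 5000 UMIs at 196 CPM in the high library, a ratio of 0.928 (0.870 to 0.990). The same levels were 166 and 190 CPM in the low library, a ratio of 0.873 (0.778 to 0.982). The median of this ratio over the 39 genes that reached 10 CPM in both libraries was 0.912 in the high and 0.937 in the low, and it lay below 1 for 25 and 28 of the 39. Without the cells of 30000 UMIs or more the CCT8 ratios were 0.970 (0.907 to 1.04) and 0.963 (0.856 to 1.09), and both intervals then held 1.

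CMSS1 followed depth differently in the 2 libraries, and its near-equal totals hide differences in opposite directions. In the high library the level was highest in the shallowest cells, at 106 CPM below 2500 UMIs and 97.7 CPM from 2500 to 5000 UMIs, then lay between 83.1 and 90.3 CPM in the 6 deeper bins. In the low library it was lowest in shallow cells, at 69.8 and 65.0 CPM in the same 2 bins, and highest in the next 2, at 106 CPM from 5000 to 7500 and 111 CPM from 7500 to 10000 UMIs. It then lay between 76.9 and 90.4 CPM in the 4 bins above.

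**Figure D1:**
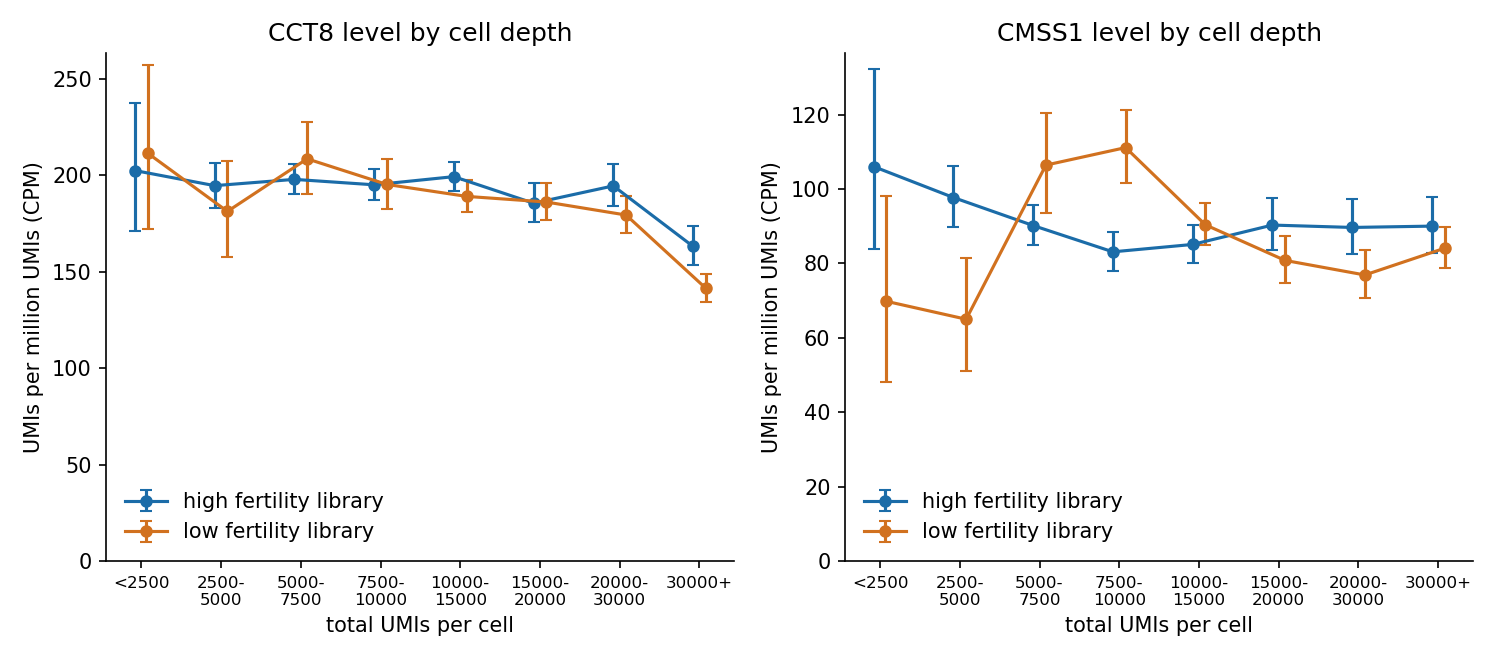
Level of CCT8 (left) and CMSS1 (right) in CPM (vertical axis from 0) against the total UMIs of the cell in 8 bins, with points for the summed UMIs of each bin and bars for exact 95% Poisson intervals. CCT8 is flat until its last bin, at 163 and 142 CPM, while the CMSS1 lines of the high (blue) and low (orange) libraries cross near 5000 UMIs and again above 15000 UMIs.

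Among the 1812 and 564 cells below 5000 UMIs, the CMSS1 level was 98.7 and 66.4 CPM, a ratio of 1.49 (1.21 to 1.84). Among cells of 5000 to 10000 UMIs, 3359 and 899 in number, it was 86.7 and 109.5 CPM, a ratio of 0.791 (0.728 to 0.861). From 10000 to 15000 UMIs the ratio was 0.942 (0.864 to 1.03), and from 15000 UMIs upward 1.11 (1.04 to 1.18). The first of these rests on 627 and 109 UMIs. Of the 8 bins, the interval of the CMSS1 ratio lay above 1 in 3, below 1 in 2 and held 1 in 3. For CCT8 it lay above 1 in 2 bins, the deepest ones, and held 1 in the other 6.

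Cells with a SAMSN1 UMI made up 8.39% and 9.40% of those below 5000 UMIs and 7.74% and 10.7% from 5000 to 10000. They made up 8.94% and 8.80% from 10000 to 15000, and 8.70% and 14.0% from 15000 UMIs upward. The SAMSN1 level over all cells was much lower in deep cells. It was 44.2 and 48.1 CPM below 5000 UMIs, and 6.24 and 11.3 CPM from 15000 UMIs upward. Whether the cells with a SAMSN1 UMI were of the same kind at all depths was not tested. Cells can be left out only where a SAMSN1 UMI was seen, so cells whose SAMSN1 was missed stay in. Without the cells with a SAMSN1 UMI, the CMSS1 ratio was 1.49 (1.21 to 1.86) below 5000 UMIs. From 5000 to 10000 UMIs it was 0.755 (0.695 to 0.822). Both were at least as far from 1 as with these cells. From 15000 UMIs upward the ratio without them was 1.06 (0.990 to 1.13), and its interval then held 1. Below 5000 UMIs the ratio of CCT8 was 1.03 (0.908 to 1.17). Because the depth ranges were merged from the bins after their values were seen, these ratios are a description.

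Most cells held at least 1 UMI of CCT8, while CMSS1 was not seen in more than 50% of them. CCT8 was detected in 69.9% of the cells of the high library (exact interval 68.8% to 70.9%) and 77.4% of the cells of the low library (76.0% to 78.8%). The median cell of the high library held 1 CCT8 UMI and that of the low library 2, and the highest held 21 and 24. CMSS1 was detected in 42.3% (41.1% to 43.4%) and 49.7% (48.0% to 51.4%) of the cells, its median was 0 in both libraries and its highest count was 20 in both.

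These shares follow the depth of the libraries. After each cell was reduced to 2000 UMIs, which left out 209 cells of the high and 132 of the low library, CCT8 was expected in 31.5% and 30.4% of the cells, against 71.2% and 79.4% of the same cells before. CMSS1 was expected in 15.4% and 15.1%, against 43.1% and 51.2%. No cell class that should lack either gene could be named from the genes analysed, so the share that free RNA gives by itself is not known.

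CMSS1 varied far more between cells of like depth than CCT8 did. The spread was measured as overdispersion, the variance of the underlying rate between cells relative to its squared mean, which is 0 when all cells of a depth bin share 1 rate. The overdispersion of CCT8 came to 0.176 and 0.162, so that its rate had a standard deviation of 0.419 and 0.403 of the mean. CMSS1 had 0.623 and 0.578, a standard deviation of 0.790 and 0.760 of the mean. CMSS1 thus had the wider spread in both libraries.

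Set among the 39 genes that reached 10 CPM in both libraries, CCT8 was one of the more even genes and CMSS1 lay above the middle. Counted from the most even gene, CCT8 was at position 9 in the high and 8 in the low library, and CMSS1 at 27 and 24. The median overdispersion of the 39 genes was 0.444 and 0.510. Genes near CMSS1 in level were spread widely around it. PROS1, at 0.877 and 0.779, and BTG3, an anti-proliferative gene, at 0.717 and 0.885, lay above it. MRPL39, at 0.118 and 0.208, and BBX, at 0.280 and 0.510, lay below it. SAMSN1, an adaptor gene of blood cells, reached 8.09 and 5.83.

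**Figure D2:**
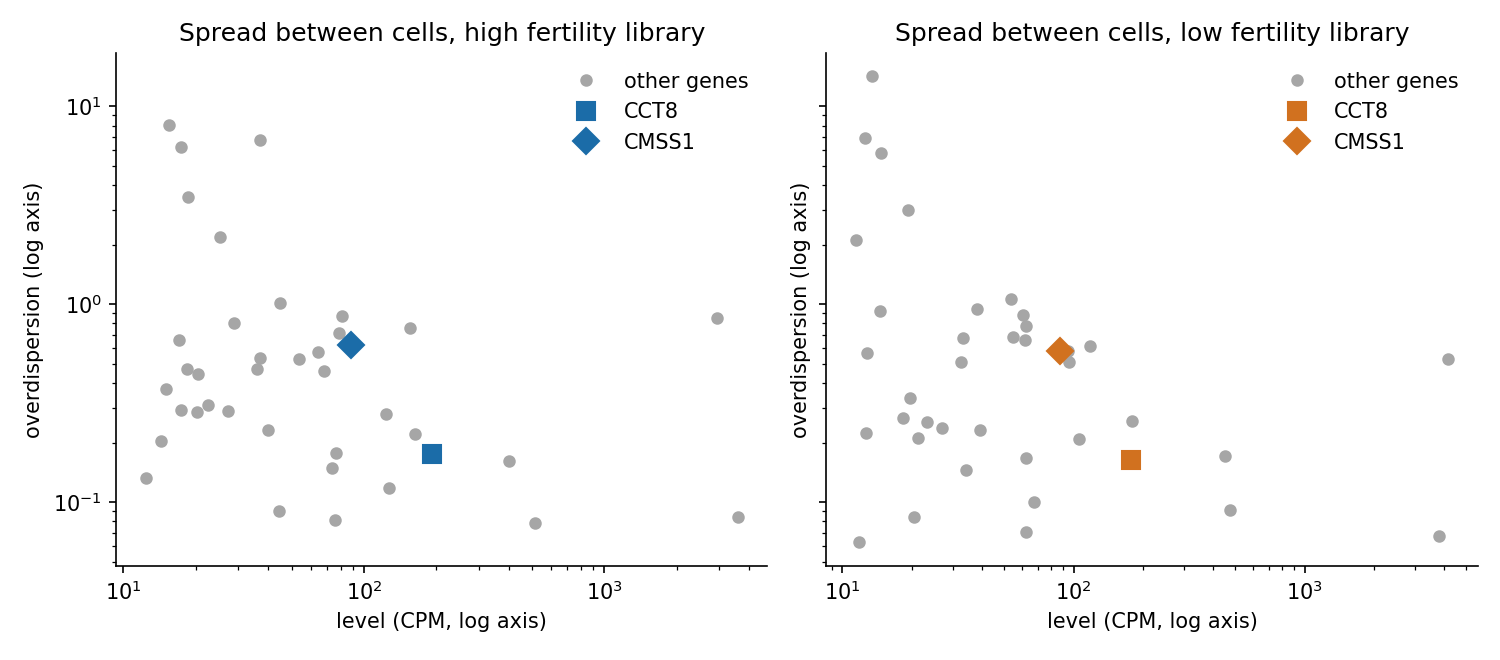
Overdispersion between cells (vertical log axis) against level in CPM (horizontal log axis) for the 39 genes that reached 10 CPM in both libraries, one point per gene, in the high (left) and low (right) library. CCT8 (square) lies near the lower edge at 0.176 and 0.162. CMSS1 (diamond), at 0.623 and 0.578, lies above most genes of like level in the high library and near their middle in the low.

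The extra spread showed at both ends of the counts. Cells without CCT8 made up 30.1% of the high library, against 26.6% expected if all cells of a bin shared 1 rate (Poisson), and 22.6% of the low, against 19.1%. Cells without CMSS1 made up 57.7% against 50.9% expected, and 50.3% against 39.5%. At the upper end, 13 cells of the high and 24 cells of the low library held 10 or more CMSS1 UMIs, where Poisson counts would give 2.47 and 7.95 cells. For CCT8 these were 59 and 64 cells, against 34.8 and 48.6.

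A negative binomial with the measured overdispersion came closer to these counts. It gave 57.0% of cells without CMSS1 in the high library, where 57.7% were seen (56.6% to 58.9%), and 47.5% in the low, where 50.3% were seen (48.6% to 52.0%). In the low library the cells with 1 CMSS1 UMI were then fewer than given, at 21.3% (19.9% to 22.7%) against 24.8%. For CCT8 it gave 30.0% and 22.3% of cells without a UMI, both within the intervals of the observed shares. At the measured overdispersion of 0.578 the fit is thus not complete for CMSS1 in the low library, which held more empty cells than given. By maximum likelihood the overdispersion of CMSS1 there was 0.744, and the shares of cells that this value gives were not computed.

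**Figure D3:**
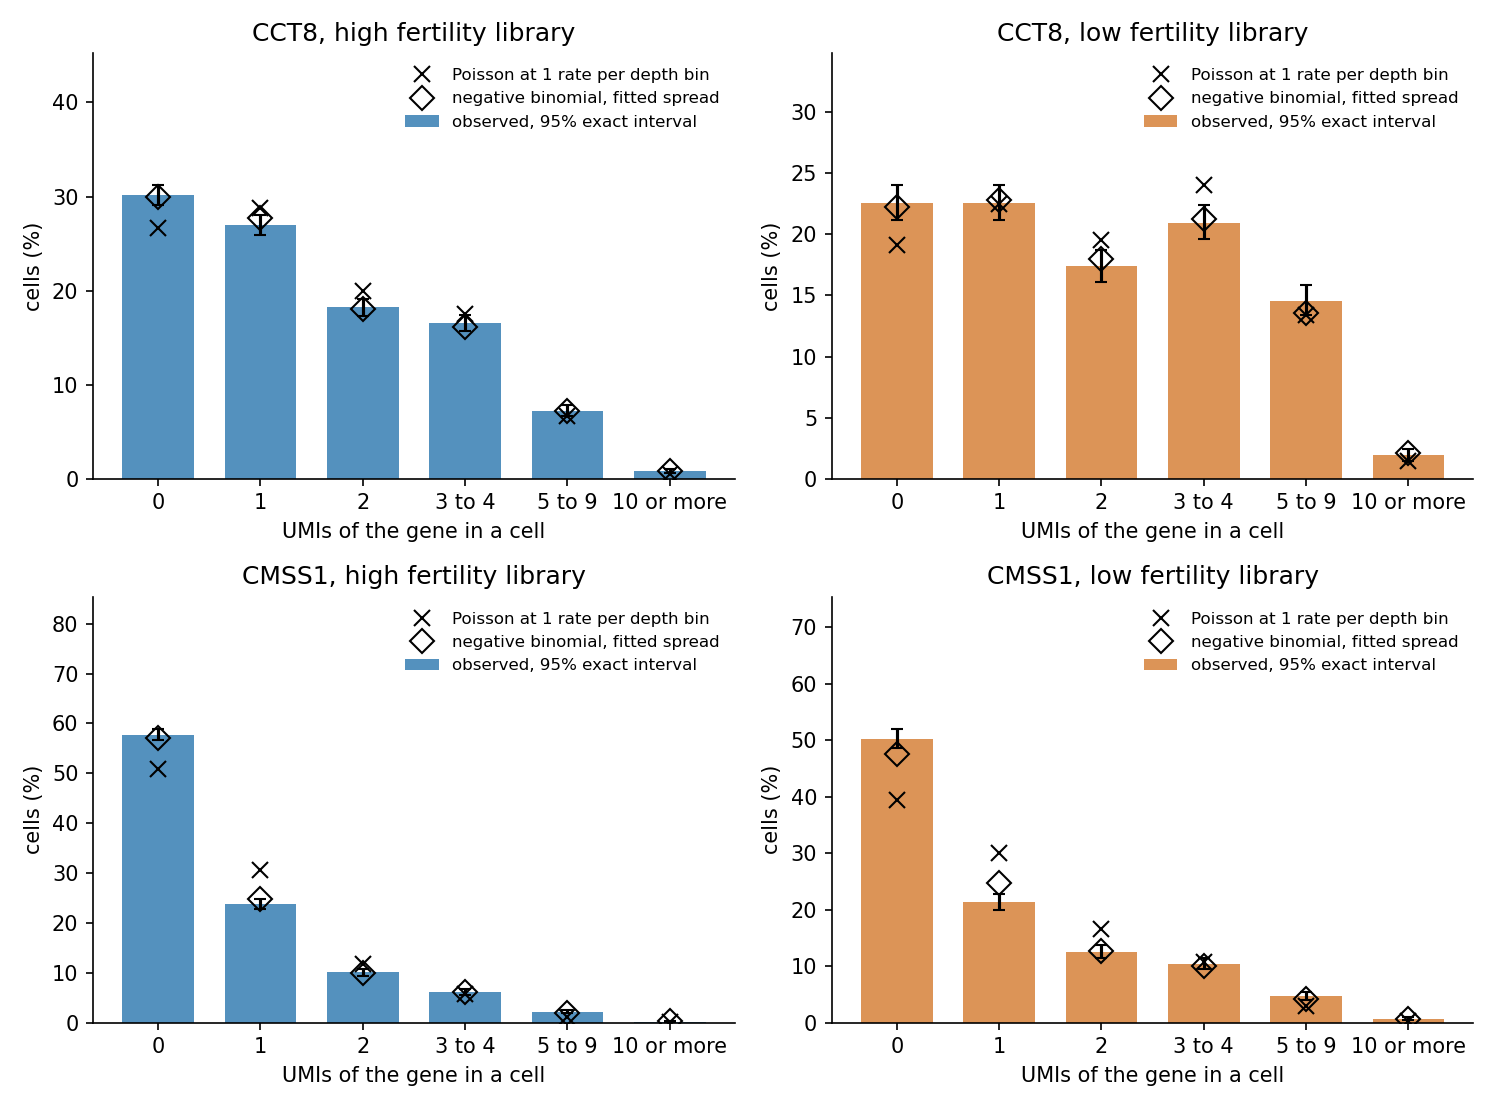
Share of cells in percent (vertical axis from 0) by the number of UMIs of CCT8 (top) and CMSS1 (bottom) in the cell, for the high (left, blue) and low (right, orange) library, with exact 95% binomial intervals, the Poisson expectation (crosses) and the negative binomial expectation (diamonds). Empty cells exceed the Poisson share in all 4 panels, most for CMSS1 in the low library (50.3% against 39.5%).

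The overdispersion of CMSS1 was lower in cells of 30000 UMIs or more than in cells of 2500 to 5000 UMIs in both libraries. That of CCT8 was lower there in the low library and higher in the high. In the high library CMSS1 had 1.07 among cells of 2500 to 5000 UMIs, 0.792 from 10000 to 15000 UMIs and 0.307 at 30000 UMIs or more. In the low library it had 0.824, 0.779 and 0.365 in the same bins, with its highest value, 1.25, from 7500 to 10000 UMIs. CCT8 had 0.132, 0.144 and 0.228 in the high and 0.385, 0.217 and 0.137 in the low library. Over all 8 bins CCT8 took no steady course. Its highest value in the high library was 0.286, below 2500 UMIs, and its lowest 0.129, from 20000 to 30000 UMIs. In the low library its highest was 0.539, below 2500 UMIs, and its lowest 0.0819, from 5000 to 7500 UMIs. Without the cells above 15000 UMIs the overdispersion of CMSS1 in the low library was 0.939, more than 1.5 times its value over all cells. In the high library it was then 0.810, against 0.623 over all cells. The 10% of cells with the most CMSS1 held 48.7% and 46.3% of its UMIs, and for CCT8 these shares were 35.7% and 33.4%.

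CCT8 and CMSS1 tended to be high in the same cells, by a small amount. Cells with both numbered 2430 of 7106 in the high library, 1.07 times the 2276 expected if detection of the 2 genes were unrelated within each depth bin, and 1458 of 3345 in the low, 1.04 times the 1408.5 expected. A further 2535 and 1132 cells held CCT8 without CMSS1, 573 and 204 held CMSS1 without CCT8, and 1568 and 551 held neither.

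The CMSS1 level tended to rise with the CCT8 count of the cell, whereas CCT8 did not rise steadily with the CMSS1 count. Cells without a CCT8 UMI held 0.753 (0.704 to 0.806) of the CMSS1 expected at their depth in the high and 0.735 (0.659 to 0.816) in the low library. Cells with 5 or more CCT8 UMIs held 1.14 (1.07 to 1.20) and 1.14 (1.09 to 1.21) of it. In the reverse direction, cells without CMSS1 held 0.891 (0.867 to 0.916) and 0.860 (0.828 to 0.894) of the CCT8 expected. The ratio was 1.07 and 1.05 in cells with 1 CMSS1 UMI and 1.14 and 1.02 in cells with 2. It was highest in cells with 3, at 1.25 (1.17 to 1.33) and 1.20 (1.12 to 1.28). In cells with 4 it was lower again, at 1.13 (1.03 to 1.24) and 1.10 (0.996 to 1.20). The 166 cells of the high library with 5 or more CMSS1 UMIs stood at 0.925 (0.856 to 0.998) of the expected CCT8. The 180 such cells of the low library stood at 1.15 (1.08 to 1.22). The expected counts are taken as fixed and cells vary beyond counting error, so these intervals are too narrow.

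**Figure D4:**
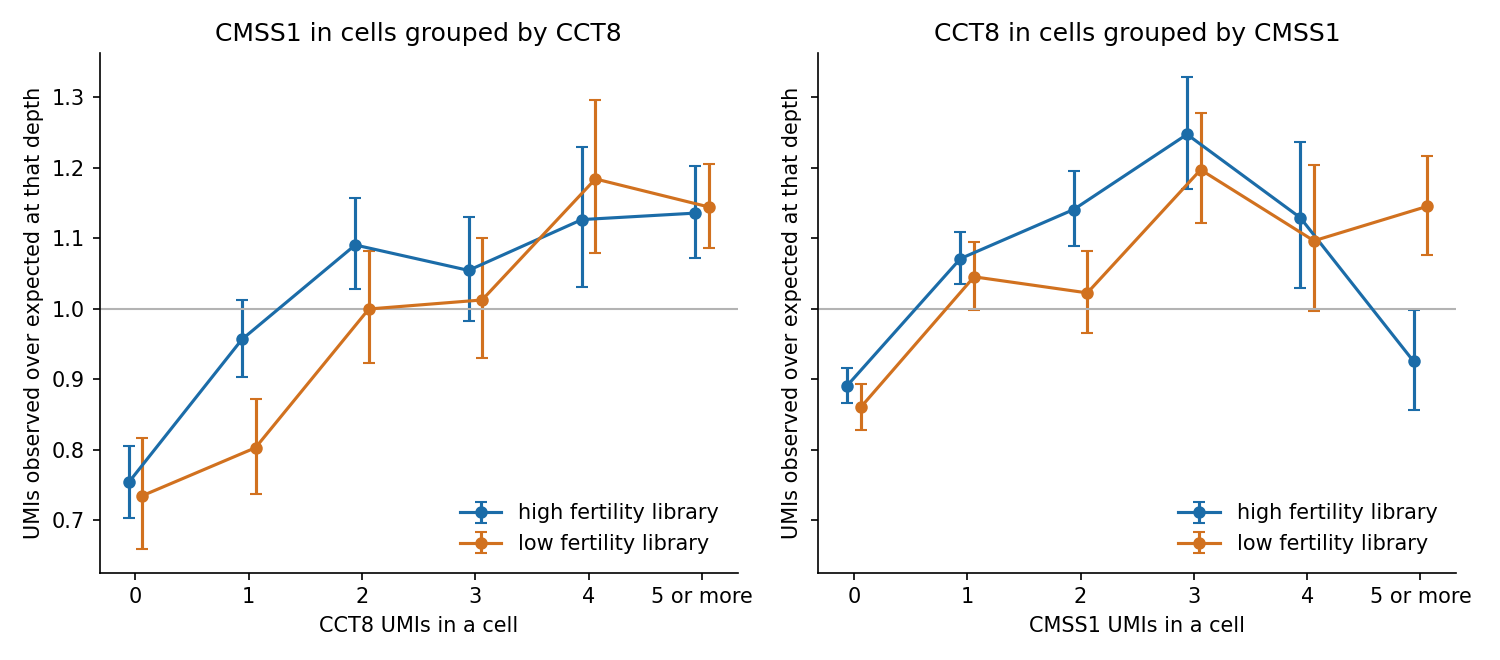
UMIs of CMSS1 in cells grouped by their CCT8 UMIs (left) and of CCT8 in cells grouped by their CMSS1 UMIs (right), as the ratio observed over expected at the same depth (vertical axis, not from 0, grey line at 1), with 95% Poisson intervals. The CMSS1 ratio lies at 0.753 and 0.735 in cells without CCT8 and at 1.14 in cells with 5 or more, in both the high (blue) and low (orange) libraries.

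As a residual correlation, taken over cells after each count was set against the count expected at its depth and divided by the square root of that expectation, the pair had r = 0.118 over 7106 cells and r = 0.166 over 3345 cells. Such values describe sparse counts from a single library each, in which all genes share the cell's depth, and they are weak. The excess co-variation, the covariance of both rates relative to the product of their means, does not shrink with sparse counts and is 0 for unrelated genes. It was 0.0899 in the high and 0.134 in the low library. Divided by the spread of both rates, it corresponds to 0.272 and 0.437 of the co-variation that fully parallel rates would give. By this measure the pair did not stand out among the partners of CCT8. The value was larger in both libraries for some, such as ENSCHIG00000010079 (0.607 and 0.539) and TRMT10C (0.431 and 0.524). For others it was smaller in both, such as BTG3 (0.257 and 0.379).

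Among all 741 pairs of the 39 genes, 2.02% had a residual correlation at or above that of CCT8 with CMSS1 in both libraries. Of the 14 other pairs, 8 held ENSCHIG00000022046. The median over the 741 pairs was 0.0158 in the high and 0.0223 in the low library for the correlation, and 0.0437 and 0.0458 for the excess co-variation. By the correlation in each library alone the pair ranked 29 and 23 of 741. By the excess co-variation it ranked less high, at 218 and 140 of 741. Without the cells above 15000 UMIs the excess co-variation was 0.169 in the high library, more than 1.5 times that over all cells, and 0.199 in the low.

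The other genes most like CCT8, by the mean residual correlation of both libraries over 38 partners, were ENSCHIG00000022046 (r = 0.143 in the high and 0.203 in the low library), ENSCHIG00000010079 (0.138 and 0.162), MRPL39 (0.114 and 0.179) and PROS1 (0.106 and 0.155), with CMSS1 between the last 2. After the division by the spread of both rates, MRPL39 had the larger values, 0.648 and 0.707, against 0.267 and 0.405 for PROS1. CCT8 had a positive correlation with 33 of the 38 partners in both libraries and a negative one with 5 in both. Its median correlation was 0.0568 in the high and 0.0676 in the low library.

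For CMSS1 the partners highest by the same measure were ENSCHIG00000022046 (0.155 and 0.191), CCT8, the membrane protein gene CLDND1 (0.0798 and 0.167), COX17, which carries copper to cytochrome c oxidase (0.0951 and 0.133), and BTG3 (0.0649 and 0.123). CMSS1 was positive with 25 of 38 partners in both libraries, negative with 8 in both and of opposite sign with 5. Its median correlation was 0.0338 and 0.0500. In cells with a BTG3 UMI the CMSS1 level was 1.27 (1.23 to 1.32) and 1.42 (1.36 to 1.47) times that of cells without, at matched depth, and the CCT8 level 1.10 (1.07 to 1.12) and 1.12 (1.09 to 1.15) times.

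The same 3 genes were lowest for both CCT8 and CMSS1. With CCT8 the correlation was -0.105 and -0.139 for IFNGR2, part of the receptor for interferon gamma, -0.0998 and -0.124 for NFKBIZ, a nuclear protein that tunes NF-kB target genes, and -0.103 and -0.119 for SAMSN1. With CMSS1 it was -0.112 and -0.158 for SAMSN1, -0.0838 and -0.169 for IFNGR2, and -0.0898 and -0.0967 for NFKBIZ. All 6 were negative in both libraries, beside 5 of the 38 partners of CCT8 and 8 of those of CMSS1. The 3 genes were picked by their mean over these same libraries, so the shared sign adds no support.

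**Figure D5:**
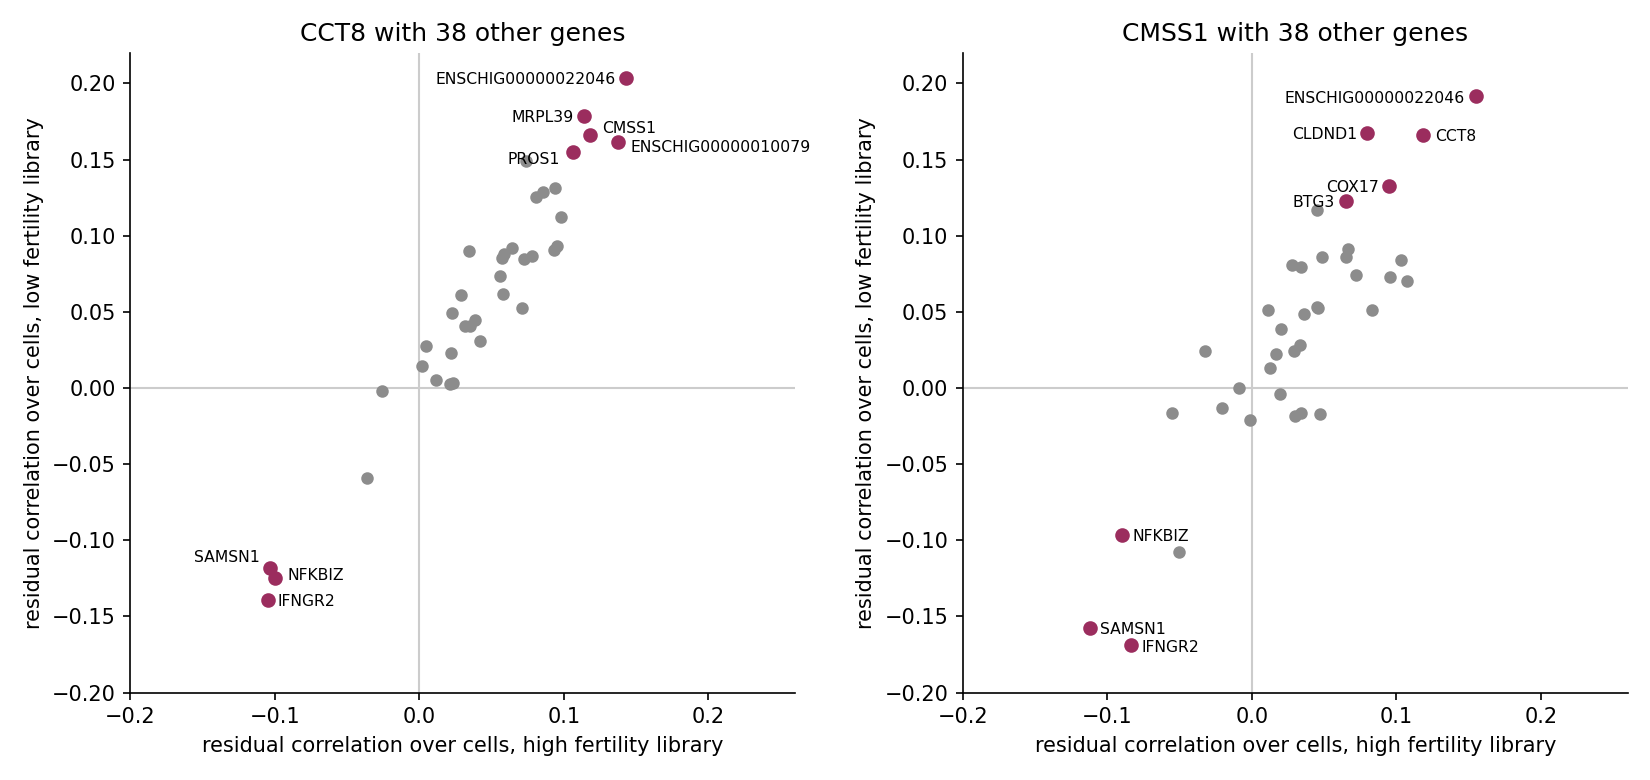
Residual correlation over cells of CCT8 (left) and CMSS1 (right) with each of 38 other genes, in the high (horizontal axis) and low (vertical axis) library, with the 5 highest and 3 lowest partners by their mean named. SAMSN1, IFNGR2 and NFKBIZ lie at the lower left of both panels, and all values lie between -0.17 and 0.21.

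The 583 and 366 cells with a SAMSN1 UMI held less of both genes. At matched depth their CCT8 level was 0.623 (0.576 to 0.674) and 0.668 (0.617 to 0.722) of that in the other cells. The low CMSS1 level of these cells, 0.337 and 0.280 of the others', was thus the more marked. The median of this ratio over 38 genes was 0.764 and 0.860, with CCT8 at position 15 from the lowest in both libraries and CMSS1 at 4 and 5. Lower levels in these cells were therefore common but not general. NAA50, the catalytic subunit of an N-terminal acetyltransferase, was 1.37 (1.15 to 1.62) and 1.43 (1.19 to 1.69) times as high in them, while USP16, a deubiquitinase that acts on histone H2A, stood at 0.582 (0.511 to 0.661) and 0.687 (0.604 to 0.777).

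The relations kept their sign at smaller size when the cells with a SAMSN1 UMI were left out, though cells whose SAMSN1 was missed stay in. CCT8 with CMSS1 then had r = 0.103 and 0.144, CCT8 with IFNGR2 -0.0776 and -0.106, CCT8 with NFKBIZ -0.0824 and -0.108, CMSS1 with IFNGR2 -0.0565 and -0.124 and CMSS1 with NFKBIZ -0.0708 and -0.0837. The overdispersion of CMSS1 was 0.585 and 0.512 without these cells and that of CCT8 0.159 and 0.147.

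CMSS1 differed with the 2 modes of ENSCHIG00000012599, whose deposited log values separate the cells at about 2.5, in the low library more than in the high. At matched depth, cells above 2.5 held 1.44 (1.39 to 1.49) times the CMSS1 of cells below in the low and 1.07 (1.03 to 1.11) times in the high library, whereas CCT8 stood at 0.953 (0.929 to 0.978) in the low and 1.01 (0.981 to 1.03) in the high. The expected counts came from the cells below the bound and were taken as fixed, so these intervals are too narrow. By depth, the low library CCT8 ratio of cells above to cells below was 0.944 (0.751 to 1.19) under 5000 UMIs. It was 0.946 (0.849 to 1.05) from 5000 to 10000, 0.913 (0.832 to 1.00) from 10000 to 15000 and 0.976 (0.907 to 1.05) from 15000 upward. Each of these intervals held 1. The CCT8 value of the high library joins opposite differences. There the ratio of cells above to cells below the bound was 0.767 (0.678 to 0.866) under 5000 UMIs, 0.921 (0.869 to 0.977) from 5000 to 10000, 1.03 (0.954 to 1.11) from 10000 to 15000 and 1.10 (1.02 to 1.19) from 15000 UMIs upward. The CMSS1 difference in the low library lay in its deeper cells, at 99.8 against 67.6 CPM from 10000 to 15000 UMIs and 88.5 against 53.9 CPM at 15000 UMIs or more. Below 5000 UMIs the low fertility levels were 63.5 CPM above and 70.0 CPM below the bound, both under the high fertility values of 97.7 and 99.3 CPM. Whether the libraries differ in this respect was not tested, with 1 library each.

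Of 34 genes listed for protein synthesis, 14 are among the genes analysed, and no other chaperonin subunit is. Only MRPL39, USP16, TRMT10C and NAA50 reached 10 CPM, and 0 of these 4 passed 1.5-fold between the libraries, beside 15.9% of the 44 genes of that level. The median ratio high over low of the 4 was 1.13, beside 1.14 for all 44 genes of that level. Of the 14, 4 had a counting interval wholly above 1, 2 had it wholly below, and in 8 it held 1. Of the 149 genes with a UMI in both libraries, 34.2% had it above 1 and 16.1% below. Below 10 CPM, HSPA13, an HSP70 family member linked to the endoplasmic reticulum, stood at 5.39 against 3.63 CPM. RIOX2, a hydroxylase that acts on a ribosomal protein, stood at 5.02 against 6.50 CPM, and MRPS6, of the small mitochondrial ribosomal subunit, at 1.33 against 4.25 CPM. The 2 further genes tied to ribosome making were sparse, with NEPRO at 4.34 and 4.73 CPM and URB1 at 0.643 and 0.547 CPM, and LTN1, a ubiquitin ligase for stalled ribosomes, lay at 1.33 and 1.07 CPM. The intervals of the 4 further listed genes held 1: N6AMT1, a methyltransferase of a translation release factor, at 8.31 and 7.53 CPM, the tRNA modification genes QTRT2, at 5.99 and 5.74 CPM, and NSUN3, at 0.188 and 0.350 CPM, and GTPBP8 at 2.07 and 1.58 CPM.

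The residual correlation with the 4 abundant listed genes was above 0 in both libraries for all 4 with CCT8 and for 3 with CMSS1, near the shares over all 38 partners, 86.8% and 65.8%. For TRMT10C, a subunit of mitochondrial RNase P, the residual correlation was 0.0640 and 0.0922 with CCT8 and 0.0487 and 0.0862 with CMSS1. For USP16 it was 0.0782 and 0.0865 with CCT8 and 0.0455 and 0.0524 with CMSS1. For NAA50 it was 0.0418 and 0.0306 with CCT8, under the medians of all partners, and -0.0205 and -0.0129 with CMSS1. MRPL39 had 0.108 and 0.0702 with CMSS1, beside its larger values with CCT8 above. In cells with an MRPL39 UMI the CCT8 level was 1.23 (1.20 to 1.26) and 1.17 (1.14 to 1.20) times, and the CMSS1 level 1.32 (1.28 to 1.36) and 1.27 (1.23 to 1.31) times that of cells without, at matched depth. Such values were not particular to listed genes. For PROS1, which is not listed, they were 1.11 (1.09 to 1.14) and 1.20 (1.17 to 1.24) for CCT8. For CMSS1 they were 1.30 (1.26 to 1.35) and 1.34 (1.28 to 1.39).

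CCT8 is at row 25 and CMSS1 at row 82 of the table, and the genes on either side of each differed from it in level. USP16 follows CCT8 and stood at 76.9 against 67.7 CPM, while BACH1, ENSCHIG00000016193 and RWDD2B around it lay below 2 CPM. FILIP1L, named for the binding of a related protein to filamin A, precedes CMSS1, and in the RefSeq table of assembly ARS1.2 its bounds fall within those of CMSS1. FILIP1L was 3.02 (2.69 to 3.39) times as high in the high library, beside 1.02 for CMSS1. Their residual correlation was -0.0176 and 0.0240, and cells with a FILIP1L UMI held 0.979 (0.912 to 1.05) and 0.977 (0.884 to 1.08) of the CMSS1 of the other cells at matched depth. Whether the counting used the strand is not given in the sources used here, so reads of these overlapping genes cannot be told apart with certainty. The other neighbours of CMSS1 were COL8A1, a collagen chain gene, at 9.30 against 3.83 CPM, TBC1D23 at 5.33 against 3.85 CPM and NIT2 at 20.3 against 21.2 CPM.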

How the data were processed

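The authors deposited 1 table of genes by cells, with values on a natural log scale. Cell Ranger 2.2.0 is named in the submitters' processing notes; the sources used here do not name the genome build, annotation, cell filter or normalizing program. Each value is ln(1 + 10000 x / t), with x the UMIs of the gene and t those of the cell. UMIs and totals were worked back from this, and all 177610 values above 0 came out whole within 0.0001. The 154 complete gene rows were used and 1 incomplete row was left out. All 10451 cells were kept, no doublet caller was run and cells were not clustered. Cells were assigned to libraries by column prefix.

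CPM are summed UMIs per 1000000 of the summed totals. Expected counts are the rate of the cell's depth bin (bounds at 2500, 5000, 7500, 10000, 15000, 20000 and 30000 UMIs) times its total; in comparisons of cells with and without a UMI the rate came from the cells without. Overdispersion is the moment estimate from these. It weights cells by their squared expected count, and the excess co-variation by the product of both expected counts, so deep cells weigh most in both. The statistics were tested on simulated data. Python 3.11.15, numpy 2.4.6, scipy 1.17.1, pandas 2.3.3 and matplotlib 3.10.9 were used.

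The 2 genes, the lists and the bins were chosen with earlier results of these data known. Named genes were CCT8, CMSS1, the 5 highest and 3 lowest partners of each, neighbours in level and in the table, FILIP1L, and the listed protein synthesis genes. The genes shown in cells grouped by SAMSN1, BTG3, MRPL39, PROS1 or ENSCHIG00000012599 were chosen after values were seen. Markers of theca, stroma, endothelium and oocyte (0 of 3, 0 of 3, 0 of 3 and 0 of 2) are not among the genes analysed; of 3 epithelial markers UPK1B is, at 0.455 and 0.504 CPM. Alternatives changed the scaling, the depth bounds, the bins, the estimator and the cells kept.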

Additional observations from a re-analysis of the deposited data

How the results depend on the processing

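The ratio high over low of CCT8, 1.08, was 1.02 as a mean over cells and without cells above 15000 UMIs, 1.04 standardised over the depth bins and as shares of cells after thinning, and turned to 0.967 divided by the median ratio of abundant genes and to a difference of -0.014 of the deposited log means. That of CMSS1, 1.02, was 0.908 by the same division, 0.924 without cells above 15000 UMIs and -0.018 as a difference of log means. The ratio of deep to shallow cells with bounds of 2500 and 30000 UMIs was 0.806 (high) and 0.669 (low fertility) for CCT8. With bounds of 7500 and 10000 UMIs that of CMSS1 in the low fertility library turned from 1.22 (1.01 to 1.49) to 0.931. Without cells above 15000 UMIs the CMSS1 overdispersion in the low fertility library was 0.939 and the excess co-variation of the pair in the high 0.169; the cause was not tested. Of 70 recomputed values 56 stayed within the counting interval, or within 1.5 times where there is none, made up of 9 of 18 for ratios between libraries, 13 of 16 for deep over shallow cells, 19 of 20 for overdispersion, 11 of 12 for co-variation and 4 of 4 for named partners. The 5 named partners of each gene stayed the same with filters of 5 and 20 CPM. Settings without SAMSN1 cells (for ratios between libraries and residual correlations), without shared barcodes and without cells of 30000 UMIs or more were chosen after seeing the data. Bins of few cells and UMIs, such as CMSS1 below 2500 UMIs, limit the precision, and no setting stands in for replicate libraries. No paired analysis was possible because neither group holds more than 1 library.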
